A study of Drosophila melanogaster with 18 samples.

Results

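Whole adult female *Drosophila melanogaster* with and without RNAi against Tudor-SN were compared across every oxygen level of the study, by setting all 9 knockdown libraries against all 9 control libraries, with oxygen level kept as a block. The libraries were chosen by their titles, and they are all 18 libraries of the series. Knockdown flies (w;;Da-GAL4/UAS-Tudor-SN RNAi) carried both the driver Da-GAL4 and the RNAi transgene of Bloomington stock 34865, and control flies (w;;+/UAS-Tudor-SN RNAi) carried the transgene without the driver. Within each genotype, 3 libraries came from flies kept in normoxia, 3 from flies held for 6 h in 6% O2 and 3 from flies held for 6 h in 2% O2. Each library pooled 10 females aged 1 to 5 days, so differences between single flies cannot be seen. Driver-only flies were not analysed here, so effects of the driver and of the RNAi cannot be told apart.

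Tudor-SN, known as SND1 in mammals, is a conserved protein with staphylococcal-nuclease-like domains and a Tudor domain. It is a component of the RNA-induced silencing complex, binds RNA and joins stress granules, and it has also been linked to transcription and splicing. Da-GAL4 uses the promoter of daughterless, a broadly expressed transcription factor gene, to make the yeast activator GAL4 in nearly all tissues, and GAL4 then turns on the hairpin behind the UAS. Averaging over oxygen levels asks which transcripts differ with the knockdown in the mean of the levels. A single level can carry such a mean. A separate test asks for which transcripts the difference between genotypes depends on the oxygen supply.

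Levels are FPKM (fragments per length of transcript and depth of library) after scaling between libraries. Differences are knockdown minus control on the log2(scaled FPKM + 1) scale, where low genes move less than their true ratio, and are given ± SE with 9 libraries per genotype. A gene was called when its adjusted p from limma was under 0.05. The libraries held 12525 to 12951 genes above 0, and their relative depth, read from the spacing of low values, was 0.96 to 1.01 in all but knockdown 2% O2 replicate 3, at 0.88. That library also stood apart on the component of variation that separated the genotypes, at 0.95 against -15.6 and -16.8 for the other knockdown libraries at 2% O2. Counts without it are given beside the main ones. Markers of male accessory gland and testis summed to at most 0.707 FPKM in knockdown and 1.00 FPKM in control libraries, with the defining markers SP and Mst84Da at 0, and markers of every female tissue checked were present.

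The RNAi target, Tudor-SN (FBgn0035121; minus strand of 3L, 259043 to 264380 in BDGP6), was low in every knockdown library. In knockdown flies it had 18.2, 20.8 and 20.6 scaled FPKM in normoxia, 18.2, 13.8 and 15.8 at 6% O2 and 6.06, 5.43 and 5.20 at 2% O2. In control flies it had 210, 218 and 214 in normoxia, 215, 215 and 221 at 6% O2 and 174, 161 and 168 at 2% O2. The genotypes did not overlap, and the averaged difference of -3.92 ± 0.15 leaves 6.63% of the control level on this scale (limma adjusted p = 6.52e-11). A 2-sided exact permutation test with labels exchanged within oxygen levels gave p = 0.00025, the smallest its 8000 arrangements allow. The gap was not even over oxygen levels, at -3.37 in normoxia, -3.70 at 6% O2 and -4.68 at 2% O2 (limma interaction adjusted p = 3.95e-05).

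Genes beside Tudor-SN showed no change of that kind. DIP2, on one side, differed by 0.08 ± 0.04 (limma adjusted p = 0.176) and mRpL17, on the other, by 0.01 ± 0.04 (adjusted p = 0.897). The gene wac, whose end overlaps Tudor-SN on the other strand, differed by 0.13 ± 0.04 (adjusted p = 0.0252), and it was not called after quantile normalisation (adjusted p = 0.0912). The snoRNA gene snoRNA:Tudor-SN-a, which lies inside Tudor-SN, had 4.47 ± 1.17 scaled FPKM in knockdown and 4.82 ± 2.11 in control flies (SD, n = 9). The gene da, whose promoter drives GAL4 here, rose by 0.17 ± 0.05 (adjusted p = 0.012), to 67.9 ± 4.87 scaled FPKM in knockdown flies against 60.1 ± 4.60 in control flies. The gene w, which the w background mutates, had 3.30 ± 0.496 scaled FPKM in knockdown and 3.19 ± 0.626 in control flies (SD, n = 9; difference 0.04 ± 0.08, adjusted p = 0.719).

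**Figure D1:**
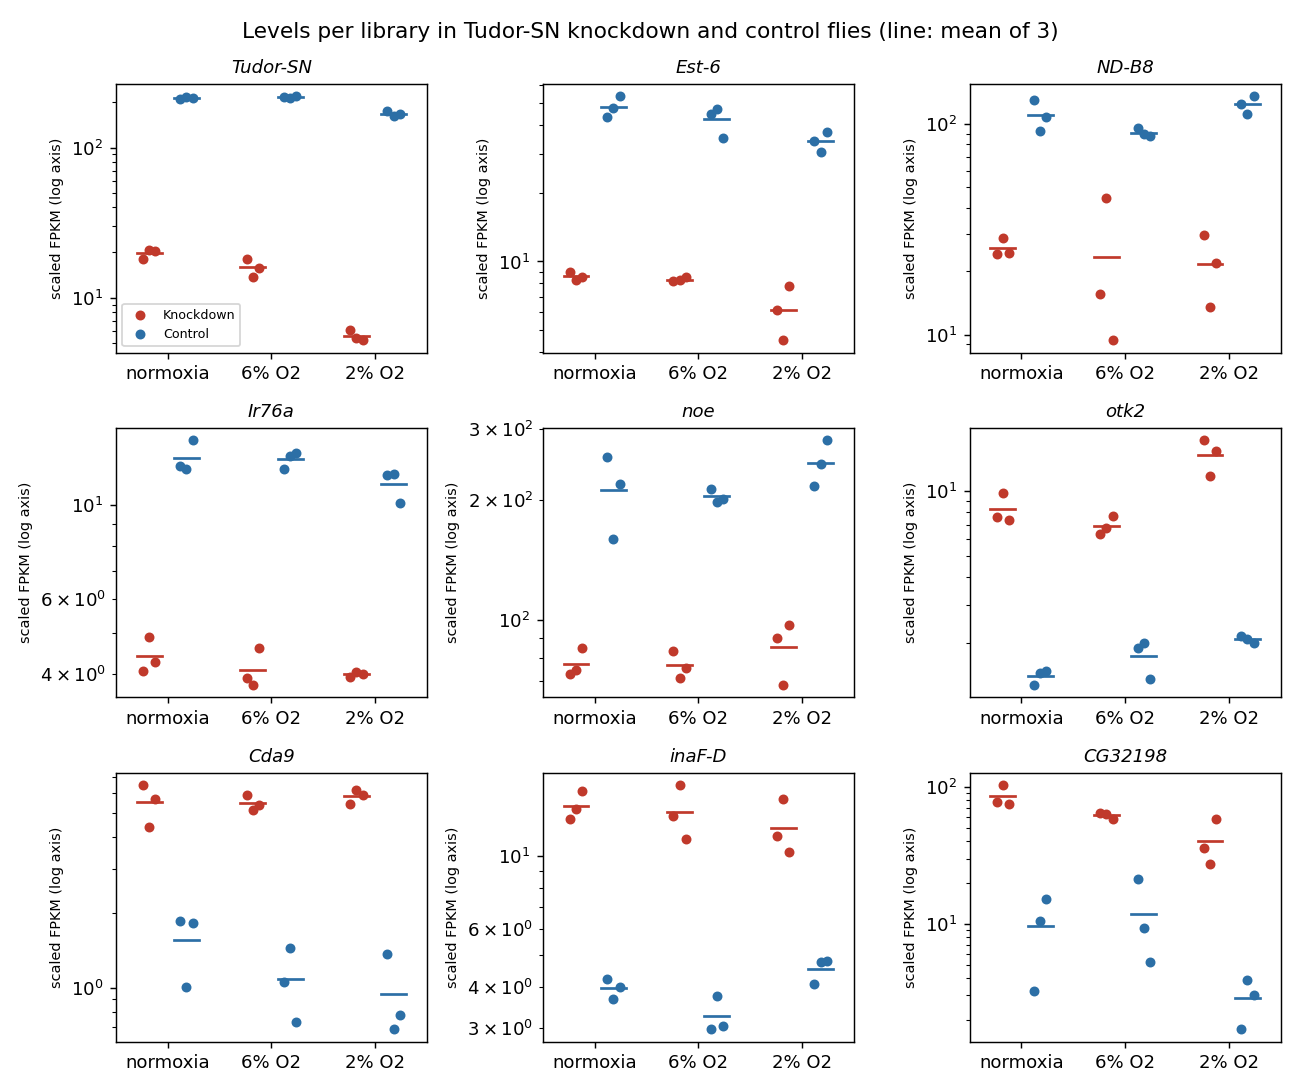
Scaled FPKM (log axes) of 9 genes in each knockdown library (red) and control library (blue) at each oxygen level, with lines at the mean of 3 libraries. Tudor-SN, Est-6, ND-B8, Ir76a and noe are lower and otk2, Cda9, inaF-D and CG32198 higher in all knockdown libraries, without overlap at any oxygen level.

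Over all genes, the knockdown went with many small differences and few large ones. Of 9921 genes tested, 3658 (36.9%) were called, 1725 higher in knockdown flies (17.4%) and 1933 lower (19.5%). The median difference was 0.16 among the higher and -0.30 among the lower genes, and 66.5% of called genes differed by less than 0.3. Only 34 genes (0.343%) rose and 42 (0.423%) fell at least 2-fold. Without knockdown 2% O2 replicate 3 there were 4565 calls, 2279 higher and 2286 lower, and there were 2164 without the normoxia libraries and 1972 without the 6% O2 libraries. The genotypes did not overlap at any of the 3 oxygen levels in 751 called genes (7.57% of those tested), 340 higher (3.43%) and 411 lower (4.14%). In 272 genes (2.74%) all 9 knockdown libraries lay on one side of all 9 control libraries.

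Genes called lower tended to be weakly expressed, and genes called higher strongly expressed. When tested genes were split by mean level into 3 equal parts, in the lowest part (1 to 13.45 FPKM), 6.89% were called higher and 30.0% lower. The highest part (from 41.8 FPKM) turned this around, with 27.3% higher and 13.6% lower. Of the 360 non-coding RNA genes tested, 28 were called higher and 54 lower, both smaller shares than among all genes (17.4% higher, 19.5% lower). Of 59 snoRNA genes 2 were higher and none lower, in libraries made from RNA captured on poly-dT beads.

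**Figure D2:**
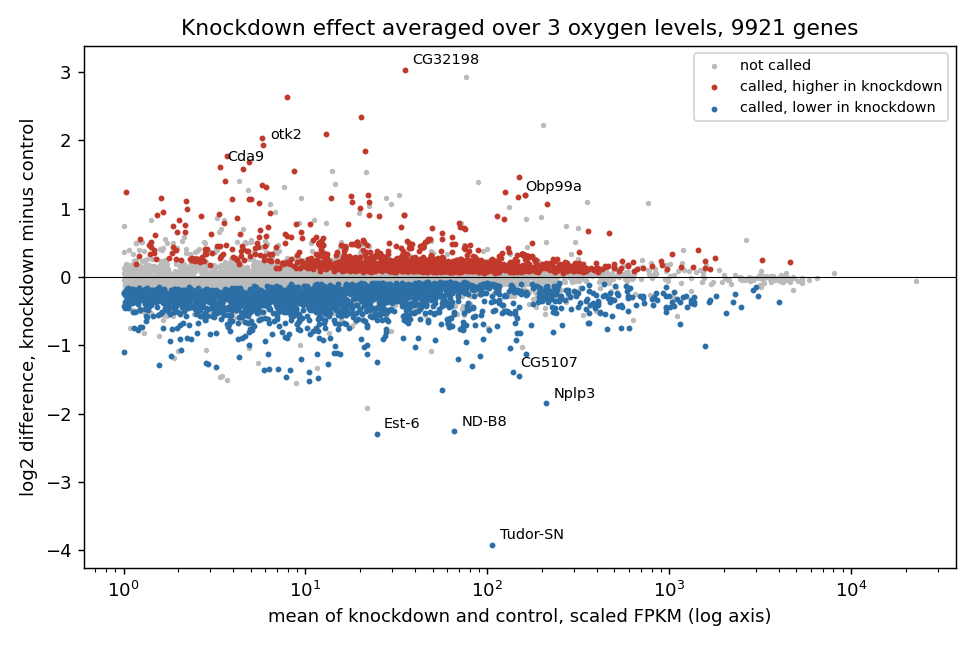
Log2 difference between knockdown and control flies (vertical axis) against the mean scaled FPKM of both genotypes (log axis) for 9921 genes, with called genes in red (1725 higher) and blue (1933 lower). Most called genes lie close to 0, and Tudor-SN, at -3.92, is the lowest point.

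Both genotypes carry the hairpin on 1 copy of chromosome 3, and the other copy holds the driver in knockdown flies and no driver in control flies, so the genotypes may differ along that whole copy. Whether this contributed to the calls was not tested. On the third chromosome 1587 of 4298 tested genes were called (36.9%) and elsewhere 2071 of 5622 (36.8%), and the share changed at least 2-fold was 0.861% there (20 genes higher, 17 lower) and 0.694% elsewhere (14 higher, 25 lower). By arm the called share was 31.5% on X, 40.1% on 2L, 37.7% on 2R, 36.5% on 3L, 37.2% on 3R and 47.1% among the 85 genes tested on chromosome 4.

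Among the genes that fell most, Est-6, which encodes a carboxylesterase, had the smallest p of all genes. Est-6 (FBgn0000592, chromosome 3L, 12188818 to 12190705) had from 4.48 to 8.97 scaled FPKM in knockdown libraries (median 8.24) and from 30.6 to 54.0 in control libraries (median 43.4). The libraries were far apart at every oxygen level, and the difference of -2.30 ± 0.08 was about even, at -2.36, -2.21 and -2.32 in normoxia, 6% O2 and 2% O2 (limma adjusted p = 5.24e-12 over all levels). Its neighbour CG6910 fell by 0.56 on the log2 scale (adjusted p = 0.000382), while thoc6, which overlaps its end on the other strand, rose by 0.23 (adjusted p = 0.000707). Ir76a, an ionotropic receptor of olfactory neurons, had from 3.78 to 4.90 scaled FPKM in knockdown libraries (median 4.05) and from 10.1 to 14.2 in control libraries (median 12.2), a difference of -1.36 ± 0.05 (adjusted p = 1.78e-11). The long non-coding RNA noe had from 68.6 to 96.8 in knockdown and from 160 to 281 in control libraries, a difference of -1.45 ± 0.08 (adjusted p = 6.65e-09). Its gene lies inside blot on the same strand, and blot rose by 0.30 (adjusted p = 0.000252). In Est-6, Ir76a and noe every knockdown library lay below every control library.

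The other strongly lowered genes varied more between libraries. Nplp3, a neuropeptide-like precursor gene, had from 50.4 to 131 scaled FPKM in knockdown libraries (median 74.3) and from 146 to 1034 in control libraries (median 265). The value of 1034 was control normoxia replicate 1, and the difference of -1.85 ± 0.26 was -1.66 without it. CG5107 fell by 1.39 on the log2 scale, CG43055 by 1.52, CG12708 by 1.37 and the non-coding CR44263 by 1.28, and in each of these 4 all knockdown libraries lay below all control libraries. CG34211, CG43773 and CG34291 differed by -1.66, -1.46 and -1.27, and in these the 9 libraries of the 2 genotypes overlapped although those of each oxygen level did not.

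The genes that rose most were led by CG32198 (chromosome 3L, 18526976 to 18527445). It had from 27.2 to 104 scaled FPKM in knockdown libraries (median 63.6) and from 1.69 to 21.1 in control libraries (median 5.26), a difference of 3.03 ± 0.28 (limma adjusted p = 3.76e-06). The receptor otk2, a member of the PTK7 family of Wnt co-receptors (chromosome 2R, 12023146 to 12025272), had from 6.34 to 17.1 in knockdown and from 1.28 to 2.15 in control libraries (1.93 ± 0.11, adjusted p = 2.46e-09). Cda9, a chitin deacetylase gene, had from 4.40 to 6.49 in knockdown and from 0.683 to 1.85 in control libraries (1.61 ± 0.10, adjusted p = 1.61e-08). All 3 were without overlap between genotypes. The odorant-binding protein gene Obp99a had from 150 to 310 in knockdown and from 56.7 to 136 in control libraries (1.17 ± 0.19, adjusted p = 0.000382), and CG11658 and CG2812 rose by 1.00 ± 0.05 and 1.13 ± 0.09.

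Several of the raised genes lie beside or over another gene, or have nearly the same values as another. CG17234 (1.76 ± 0.21) and CG17239 (1.20 ± 0.17) are neighbours on chromosome 2L, and the next gene, Send1, differed by 0.25 ± 0.22 (limma adjusted p = 0.392). CG42598 (26354140 to 26371356) and CG41284 (26298455 to 26305572) lie apart on 3L but had nearly the same values in each library. They differed by 1.35 ± 0.10 and 1.31 ± 0.10. Whether they share reads was not tested, so they are not taken as 2 separate results. At the inaF locus on X, known for its need in photoreceptor TRP channel function, inaF-D had from 10.3 to 16.5 scaled FPKM in knockdown and from 2.96 to 4.78 in control libraries (1.55 ± 0.09, adjusted p = 6.65e-09). The overlapping gene inaF-B went the other way, at 15.1 scaled FPKM in knockdown and 21.0 in control flies (-0.45 ± 0.09, adjusted p = 0.00149), and the division of reads between the 2 is uncertain.

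Nuclear genes of the respiratory chain were lower in knockdown flies almost without exception. The chain passes electrons from NADH and succinate to oxygen and drives ATP synthase in the inner mitochondrial membrane. Of 71 tested subunit genes, 68 were called lower and 1 higher, with a median difference of -0.31, where 19.5% of all genes were called lower and the median of all genes was 0.00. By complex, 33 of 34 genes of complex I, 4 of 4 of complex II, 9 of 9 of complex III, 9 of 11 of complex IV with cytochrome c and 13 of 13 of ATP synthase were lower. Subunits encoded in the mitochondrial genome were not measured, since its 38 genes have no value above 0 in any library.

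Complex I had the largest single change. ND-B8, the fly counterpart of NDUFA2 (FBgn0040705, chromosome 2L, 4454626 to 4455207), had from 9.38 to 44.7 scaled FPKM in knockdown libraries (median 24.2) and from 87.8 to 136 in control libraries (median 108). The genotypes were far apart at all oxygen levels, and the difference was -2.26 ± 0.22 (limma adjusted p = 5.74e-06). Of 12 other tested genes within 10 kb, the differences ran only from -0.18 to 0.13. The next largest was ND-B14 (chromosome 2R), with 92.3 to 128 scaled FPKM in knockdown and 140 to 211 in control libraries (-0.67 ± 0.07, adjusted p = 8.62e-06), and ND-B14.7 differed by -0.53 ± 0.05. All other subunits of complex I called lower, such as the catalytic-core genes ND-51 (-0.48), ND-23 (-0.45), ND-24 (-0.46) and ND-75 (-0.27), fell by 0.50 or less on the log2 scale. The acyl carrier ND-ACP differed by -0.07 ± 0.05 and was not called (adjusted p = 0.236).

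The other complexes changed by similar, smaller amounts. In complex II SdhA, SdhB, SdhC and SdhD differed by -0.30, -0.33, -0.33 and -0.19, and in complex III the 9 genes differed by -0.45 to -0.24, with UQCR-14 at -0.44 and RFeSP, the Rieske iron-sulfur protein, at -0.44. Cytochrome c (Cyt-c-p) had from 707 to 1109 scaled FPKM in knockdown and from 933 to 1384 in control libraries (-0.45 ± 0.07), and the ranges overlapped through knockdown 2% O2 replicate 3. In complex IV levy (-0.39) and COX5A (-0.37) were lower, COX5BL, at 2.06 scaled FPKM in knockdown and 2.07 in control flies, was not called, and COX7A, at 466 scaled FPKM in knockdown and 424 in control flies, rose by 0.14 ± 0.03 (limma adjusted p = 0.0012). ATP synthase genes differed by -0.41 (ATPsynB) to -0.23 (sun).

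As a list median, the shift was seen at each oxygen level and most weakly at 6% O2. At 6% O2 alone limma called ND-B8, ND-B14 and ND-B14.7 lower. It did not call SdhA, SdhB, SdhC, UQCR-14, RFeSP, Cyt-c-p, levy, COX5A or ATPsynB there (adjusted p = 0.0595 to 0.41). In 18 of the 71 genes the genotypes did not overlap at any level, lower in knockdown, against 4.14% of all genes. The median over the 71 genes was -0.46 in normoxia, -0.16 at 6% O2 and -0.34 at 2% O2, and limma called 0 of them for a difference between levels (8 at an unadjusted p under 0.05), where 8.47% of all genes were. Their score, a per-library mean of log2 levels after centring each gene, ran from -0.35 to 0.15 in knockdown libraries (median -0.23) and from 0.03 to 0.33 in control libraries (median 0.16). The highest knockdown score, 0.15, was that of knockdown 2% O2 replicate 3, and all other knockdown libraries lay below all control libraries. Leaving out single libraries kept 66 to 68 of the genes called lower, while leaving out all normoxia libraries left 34.

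Some markers of flight muscle and photoreceptors were lower too, though their sums overlapped between the genotypes. Flight muscle markers summed to 1312 to 2495 scaled FPKM in knockdown and 1689 to 3924 in control libraries, with 3 of 7 lower, and photoreceptor markers to 1506 to 2374 in knockdown and 1723 to 2534 in control libraries, with 5 of 6 lower. Germline markers went the other way, at 1049 to 1194 in knockdown and 920 to 1049 in control libraries, with 3 of 6 higher. Of all genes 19.5% were lower and 17.4% higher. In RNA from whole flies, fewer cells of a type and less RNA per cell cannot be told apart. The part of tissue makeup in the respiratory change was not tested.

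Other energy genes were lower less uniformly. Among all genes 19.5% were called lower and 17.4% higher. Of 15 genes of the TCA cycle and pyruvate dehydrogenase, 9 were lower and none higher (median -0.20), among them the isocitrate dehydrogenase subunit CG5028 (-0.37), aconitase Acon (-0.34) and the fumarase gene l(1)G0255 (-0.20). Of 15 glycolysis genes 7 were lower and none higher (median -0.07), with Gpdh, which links glycolysis to glycerol phosphate, at 333 ± 45.1 scaled FPKM in knockdown and 454 ± 54.4 in control flies (SD, n = 9; -0.45 ± 0.08). Pgk and Gapdh1 differed by -0.23 and -0.30. Without the normoxia libraries 3 TCA cycle and 2 glycolysis genes were lower. Mitochondrial ribosomal proteins, which build the respiratory subunits encoded in the organelle, did not follow: 17 of 72 were higher and 6 lower, with a median of 0.02 that turned to -0.007 with quantile normalisation. The 6 were 10 without knockdown 2% O2 replicate 3 and 3 without knockdown normoxia replicate 3 or knockdown 6% O2 replicate 1, and the 17 were 11 with quantile normalisation, 9 without the normoxia and 8 without the 6% O2 libraries. The largest change among them was a rise, that of mRpL50, with 69.5 to 84.2 scaled FPKM in knockdown and 50.1 to 62.0 in control libraries (0.48 ± 0.03, limma adjusted p = 2.23e-08).

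**Figure D3:**
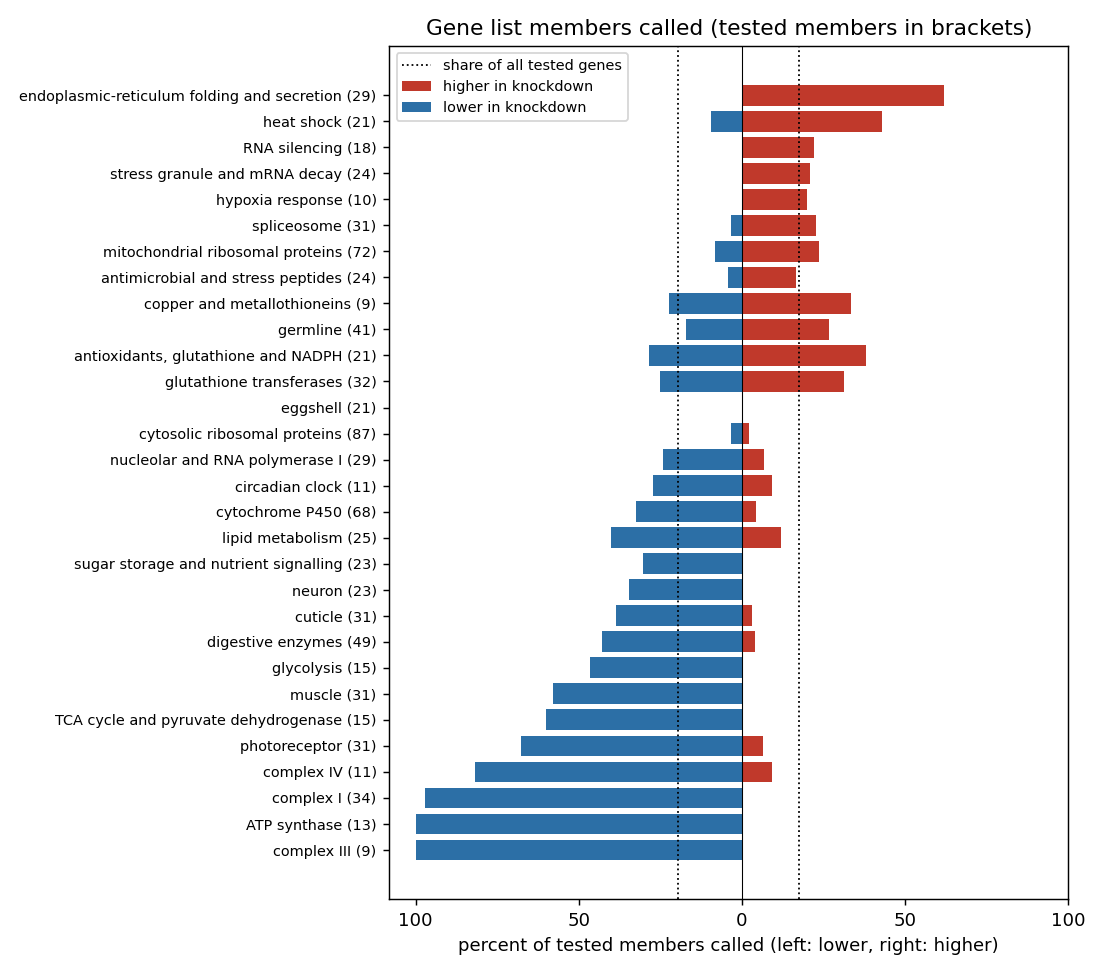
Percent of the tested members called, in each gene list with 9 or more of them, lower (blue, to the left) or higher (red, to the right) in knockdown flies, with dotted lines at the shares of all tested genes (19.5% lower, 17.4% higher). Complexes I, III and IV and ATP synthase have the longest bars on the left, and endoplasmic-reticulum genes (18 of 29) the longest on the right.

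Many structural genes of muscle, eye and nerve were lower in knockdown flies. Of 31 muscle genes 18 were lower and none higher (median -0.37), where 19.5% of all genes were lower and 17.4% higher. Mf, a protein of the thick filament region, had from 655 to 2079 scaled FPKM in knockdown libraries (median 1006) and from 1481 to 2766 in control libraries (median 2002), a difference of -1.01 ± 0.15 (limma adjusted p = 0.000176). Its highest knockdown value was that of 2% O2 replicate 3. Paramyosin, Prm, differed by -0.60 and the troponin C gene TpnC25D by -0.53. Of 31 photoreceptor genes 21 were lower and 2 higher (median -0.28). The arrestins Arr1 and Arr2, which switch off rhodopsin, differed by -0.52 ± 0.06 and -0.54 ± 0.06, and the channel gene trpl by -0.48. The 2 that rose were pinta (0.19) and Calx (0.17). Of 23 neuron genes 8 were lower and none higher (median -0.20), with comt at -0.45, nSyb at -0.42 and elav at -0.35. The count of 8 was 17 without control normoxia replicate 2 and 14 without knockdown 2% O2 replicate 3, and without the 6% O2 libraries 10 muscle and 3 neuron genes were lower.

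Many gut and cuticle genes were lower too. Of 49 digestive enzyme genes 21 were lower and 2 higher (median -0.31), where 19.5% of all genes were lower and 17.4% higher. The median of the digestive genes was -0.46 in normoxia, -0.48 at 6% O2 and 0.01 at 2% O2. Of the 49, 4 were called for a difference between levels. The trypsin gene alphaTry had from 666 to 1172 scaled FPKM in knockdown and from 1091 to 1908 in control libraries (-0.69 ± 0.10), with the ranges overlapping slightly, and epsilonTry (-1.13) and the maltase Mal-A7 (-1.24) differed more. Jon25Biii and Jon99Fii, both serine proteases, rose by 0.64 and 0.67, and without control 6% O2 replicate 1 there were 4 that rose, while the 21 were 11 without the normoxia libraries. The midgut markers summed to 2071 to 3194 in knockdown and 2894 to 5230 in control libraries, with 3 of 6 lower. Of 31 cuticle genes 12 were lower and 1, Cpr67Fb (0.35), higher (median -0.31), and Cpr65Au differed by -0.82. Of 68 cytochrome P450 genes 22 were lower and 3 higher (median -0.15). Cyp6a9 had from 7.44 to 10.9 scaled FPKM in knockdown and from 17.2 to 23.6 in control libraries (-1.11 ± 0.07, limma adjusted p = 1.21e-08), whereas Cyp6d4, Cyp4d20 and Cyp6a19 rose by 0.66, 0.45 and 0.18. This list varied with oxygen, with 15 of 68 called for a difference between levels (8.47% of all genes were) and medians of -0.29 in normoxia, -0.29 at 6% O2 and 0.08 at 2% O2. The 22 were 37 without the 2% O2 libraries and 14 without the normoxia libraries.

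**Figure D4:**
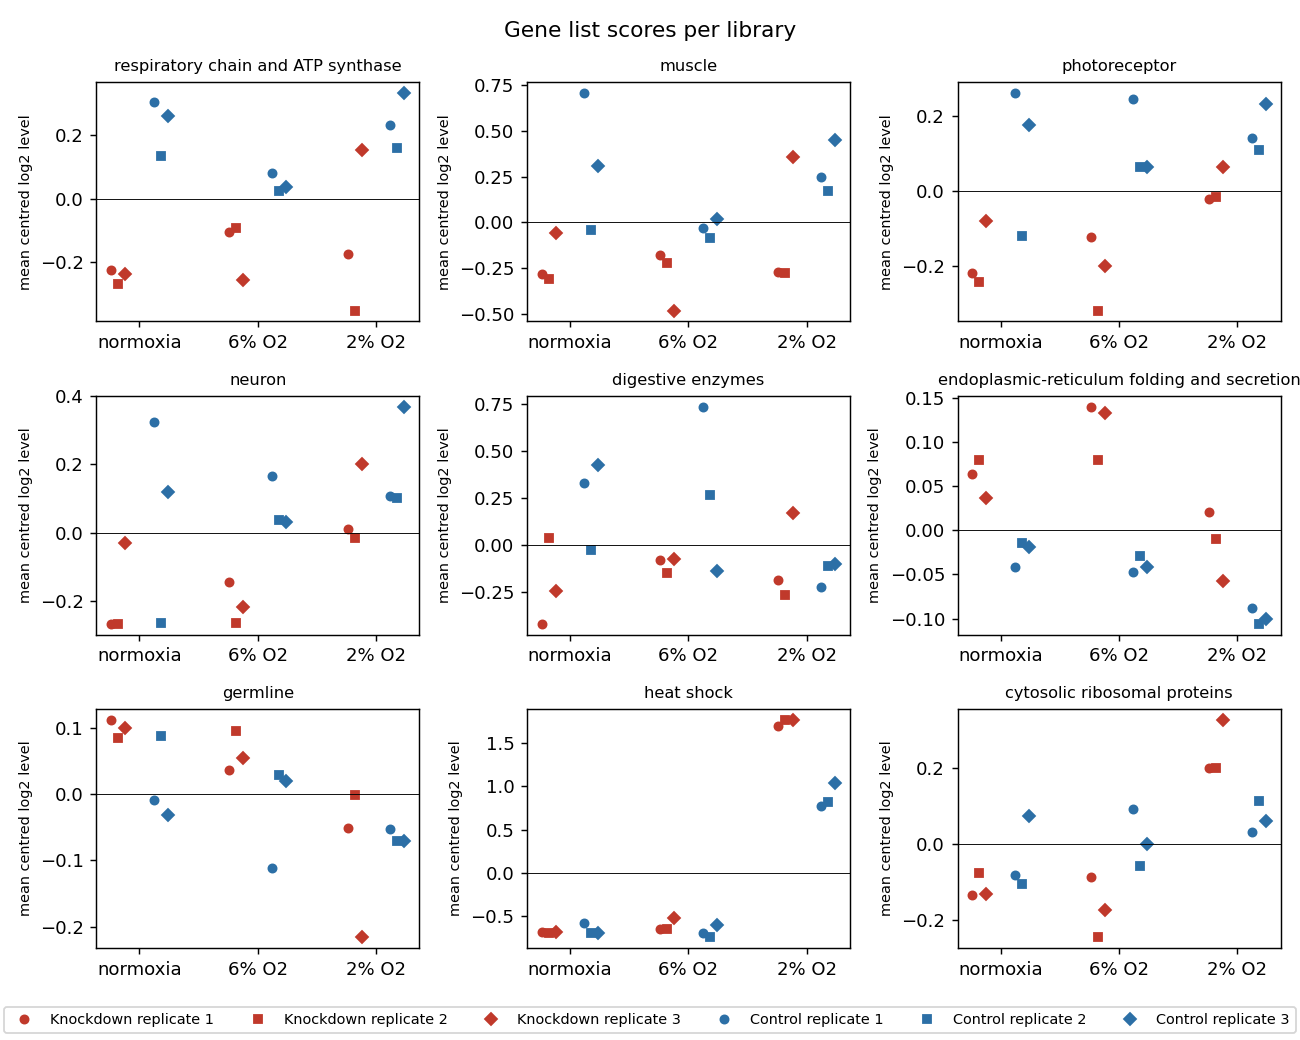
Per-library score of 9 gene lists (mean log2 level of the members, each gene centred first) for knockdown (red) and control (blue) at each oxygen level, with the replicate number as the shape. The respiratory scores of the genotypes do not overlap at any level, and knockdown 2% O2 replicate 3 (0.15) is the highest knockdown library.

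Most genes for entry into and folding in the endoplasmic reticulum rose by small amounts. Of 29 tested, 18 were higher and none lower (median 0.09), where 17.4% of all genes were higher. TRAM, which assists the translocation channel, had 51.5, 54.2 and 48.7 scaled FPKM in knockdown and 43.5, 42.2 and 43.4 in control flies in normoxia, and it was higher without overlap at the other 2 levels as well (0.27 ± 0.04, limma adjusted p = 9.68e-05). The channel subunits Sec61alpha, Sec61beta and Sec61gamma rose by 0.19, 0.26 and 0.20, the signal peptidase subunit Spase12 by 0.25, and the stress sensors Ire1 and PEK by 0.20 and 0.17. The count was 15 to 19 when single libraries were left out, 11 with quantile normalisation and 10 without the 6% O2 libraries.

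In lists of Tudor-SN's own known processes, the shares called higher were little above that of all genes, and most rises were small. Of 18 RNA silencing genes, Hen1 (0.22), Ars2 (0.15), AGO1 (0.11) and AGO2 (0.08) were higher and none lower, which is 4 of 18 against 17.4% of all genes, with a median of 0.01. Hen1, the methyltransferase of small RNAs, had 18.7 ± 1.71 scaled FPKM in knockdown and 15.9 ± 1.36 in control flies (SD, n = 9; limma adjusted p = 0.00054). Of 24 stress granule and mRNA decay genes, 5 were higher and none lower (median 0.07), where 17.4% of all genes were higher. They were me31B, a DEAD-box helicase of decay bodies (0.15), Patr-1 (0.14), stau (0.16), Smg5 (0.12) and Not3 (0.09). Of 31 spliceosome genes 7 were higher and 1, crn, lower (median 0.06), where 17.4% of all genes were higher. The largest rise was that of snRNP-U1-C of the U1 particle, with 66.6 to 79.5 scaled FPKM in knockdown and 38.3 to 66.1 in control libraries (0.48 ± 0.09). Single libraries and oxygen levels decided these counts. The decay genes had 14 without the 2% O2, 1 without the normoxia and 0 without the 6% O2 libraries, RNA silencing had 1 without the normoxia or the 6% O2 libraries, and the spliceosome had 3 without the normoxia and 4 without the 6% O2 libraries. Without knockdown 2% O2 replicate 3 the 3 counts were 6, 12 and 11. RNA silencing had 2 without control 2% O2 replicate 2, knockdown normoxia replicate 3 or knockdown 2% O2 replicate 1. The decay genes had 8 without control 2% O2 replicate 1, 2 without knockdown normoxia replicate 3, and 3 without control normoxia replicate 1, control 6% O2 replicate 3, control 2% O2 replicate 2, knockdown 6% O2 replicate 2 or knockdown 2% O2 replicate 1. After quantile normalisation AGO1 (adjusted p = 0.0883) and Not3 (adjusted p = 0.163) were not called.

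Of 41 germline genes tested, 11 were higher and 7 lower (median 0.05), where 17.4% of all genes were higher and 19.5% lower. The differentiation factor bam had from 34.0 to 54.2 scaled FPKM in knockdown libraries (median 44.7) and from 26.5 to 35.4 in control libraries (median 31.0), a difference of 0.49 ± 0.07 (limma adjusted p = 0.000102), and the ranges overlapped slightly. The RNA localisation gene exu rose by 0.37 and mael, of the piRNA pathway, by 0.23, while the kinase gene png, which acts at egg activation, differed by -0.43 ± 0.07. The 11 were 19 without knockdown 2% O2 replicate 3 and 7 without control normoxia replicate 1, and they were 17 without the 2% O2 libraries and 4 without the normoxia or the 6% O2 libraries. Limma called 0 of 21 eggshell and 0 of 4 yolk genes (0 of each at an unadjusted p under 0.05), the second becoming 1 without control 6% O2 replicate 2 or knockdown 2% O2 replicate 3. Eggshell markers summed to 108 to 1968 in knockdown and 150 to 2661 in control libraries, so this spread is wide within each genotype, and the yolk and fat body markers summed to 1694 to 4975 in knockdown and 1493 to 3784 in control libraries.

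Few translation genes differed in the average, where 17.4% of all genes were higher and 19.5% lower. Of 87 cytosolic ribosomal protein genes, RpL7-like (0.11) and RpL37A (0.24) were higher and RpL23A (-0.19), RpS12 (-0.14) and RpLP0-like (-0.11) lower, with a median of -0.027 that turned to 0.008 with quantile normalisation. Without knockdown 2% O2 replicate 3, 6 were lower. Of 29 nucleolar and RNA polymerase I genes 2 were higher, RpI12 (0.11) and Rrp46 (0.15), and 7 lower (median -0.04), with nclb, which acts in ribosomal RNA transcription, at -0.28, the polymerase subunit RpI135 at -0.21 and eIF6 at -0.16. The 2 that rose were near the threshold, and leaving out single libraries gave 0 to 4 higher. The 7 that fell were 4 without control 6% O2 replicate 2 or 3 or knockdown 6% O2 replicate 2 or 3.

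Defence genes split within families. Of 21 antioxidant, glutathione and NADPH genes 8 were higher and 6 lower, with a median of -0.01 that turned to 0.019 with quantile normalisation. The thioredoxin reductase Trxr-1 rose by 0.15, and cnc, the fly counterpart of Nrf2, differed by -0.19 ± 0.02 (limma adjusted p = 2.12e-05) and the peroxiredoxin Prx5 by -0.19. Of 32 glutathione transferases 10 were higher and 8 lower (median 0.06), where 17.4% of all genes were higher and 19.5% lower. This family varied with oxygen, with 12 of 32 called for a difference between levels (8.47% of all genes were). Its medians were -0.16 in normoxia, -0.01 at 6% O2 and 0.27 at 2% O2. GstD3, with 75.2 to 108 scaled FPKM in knockdown and 54.6 to 69.1 in control libraries (0.43 ± 0.04), GstD2 (0.89) and GstE11 (0.42) led the rises. The 8 that fell were 5 in 11 of the 18 fits that leave out 1 library, among them those without any one normoxia library. Among 9 copper and metallothionein genes the importer Ctr1B (1.19), the metallothionein MtnC (1.24) and the exporter ATP7 (0.11) were higher, and the metallothioneins MtnD (-1.01) and MtnE (-1.31) lower (median 0.05). MtnE had 11.0, 13.4 and 13.3 scaled FPKM in knockdown libraries in normoxia, against 37.2, 38.3 and 89.8 in control libraries. At 2% O2 it had 150, 102 and 197 in knockdown libraries, against 188, 258 and 225 in control libraries, where the ranges overlapped.

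Fat and sugar genes were mostly lower where called. Among all genes 19.5% were lower and 17.4% higher. Of 25 lipid genes 10 were lower and 3 higher (median -0.07), and the fatty acid synthase gene FASN3 differed by -1.12 ± 0.20, the carnitine palmitoyltransferase whd by -0.14 and the dehydrogenase CG12262 by -0.21. The desaturase gene Desat1 (0.23), the lipase gene bmm (0.19) and SREBP (0.10) rose, a count of 3 that was 1 without knockdown 2% O2 replicate 1. Of 23 genes of sugar storage and nutrient signalling 7 were lower and none higher (median -0.10), including the receptor AkhR of the adipokinetic hormone (-0.45 ± 0.09), the hormone gene Akh (-0.68), UGP (-0.34) and foxo (-0.14). Of 11 clock genes, cry (-0.35), Clk (-0.27) and Pdp1 (-0.28) were lower and cyc (0.21) higher (median -0.07), and without control 2% O2 replicate 1 there were 2 higher.

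The averaged difference held the same sign at all 3 oxygen levels in 3357 of the 3658 called genes (91.8%), against 48.4% of all tested genes, but calling a gene by its average favours this. A test of whether the difference itself varied with oxygen called 840 genes (8.47%; 2788 at an unadjusted p under 0.05), 215 of which were also called in the average. In 787 of the 840 the difference at 2% O2 lay outside those at normoxia and 6% O2. With the normoxia and 6% O2 libraries alone limma called 0 genes (1203 at an unadjusted p under 0.05). With array weights 2618 genes were called. The 840 ranged from 330 without control 2% O2 replicate 1 to 1319 without knockdown 2% O2 replicate 2, and were 533, 526, 536 and 554 without control 2% O2 replicate 3, knockdown normoxia replicate 3 and knockdown 2% O2 replicates 1 and 3.

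Heat shock genes had the largest list median at 2% O2. Of 21 tested, 9 were higher and 2 lower in the average (median 0.26), against 17.4% and 19.5% of all genes. For a difference between levels 13 of the 21 were called, against 8.47% of all genes. Without the 2% O2 libraries 5 were higher. The list's median was 0.06 in normoxia, 0.04 at 6% O2 and 0.91 at 2% O2. The chaperone gene Hsp70Bb had 1.28, 1.44 and 1.28 scaled FPKM in knockdown and 0.770, 0.530 and 0.524 in control libraries in normoxia. At 2% O2 it had 92.4, 97.3 and 105 in knockdown libraries, against 28.6, 26.9 and 36.7 in control libraries, which makes differences of 0.54 in normoxia, 0.54 at 6% O2 and 1.65 at 2% O2 (limma interaction adjusted p = 0.000932). The Hsp70 copies are nearly identical, so the division of reads among them is uncertain. Hsf, the heat shock transcription factor, rose about evenly (0.25 ± 0.04), while Hsc70-1 differed by -0.57 ± 0.08 and Hsc70-2 by -0.18, the second of these at 0.933 scaled FPKM in knockdown and 1.19 in control flies. Of these 2, 1 was lost in 8 of the 18 fits that leave out 1 library. Of 10 hypoxia response genes, the growth inhibitor scyl (0.30 ± 0.04) and the prolyl hydroxylase Hph (0.19 ± 0.05) were higher and none lower (median 0.07), and without knockdown 2% O2 replicate 3 there were 4 higher and 2 lower. Without the 2% O2 libraries Hph was at 0.06 and not called (adjusted p = 0.166).

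The oxygen dependence of cytosolic ribosomal protein genes turned on the scaling. In this list 39 of 87 genes were called for a difference between levels, with medians of -0.07, -0.17 and 0.17 at normoxia, 6% O2 and 2% O2, but with quantile normalisation 1 gene was called and the medians were 0.029, -0.013 and 0.015. Of 24 antimicrobial and stress peptide genes 4 were higher, AttC (2.34), CecA1 (2.09), AttA (1.85) and CecA2 (1.57), and 1 lower, TotX (-0.71), with a median of 1.09. Of all genes 17.4% were higher and 19.5% lower, so the share of this list called higher was not above that of all genes. For a difference between levels 1 of the 24 was called, against 8.47% of all genes. AttC had 0.807, 2.52 and 0.748 scaled FPKM in knockdown and 1.05, 0.471 and 1.74 in control libraries in normoxia. At 6% O2 it had 39.2, 33.3 and 58.6 in knockdown libraries, against 36.7, 0.423 and 0.896 in control libraries, so control 6% O2 replicate 1 lay with the knockdown libraries. At 2% O2 it had 134, 43.7 and 3.62 in knockdown libraries, against 0.845, 2.40 and 1.18 in control libraries. The count of 4 was 1 without knockdown 6% O2 replicate 3 and 2 without control 6% O2 replicate 2 or 3, control 2% O2 replicate 1 or 3 or knockdown 2% O2 replicate 1, and AttC was not called without the 6% O2 libraries (limma adjusted p = 0.148) or without the 2% O2 libraries (adjusted p = 0.145).

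**Figure D5:**
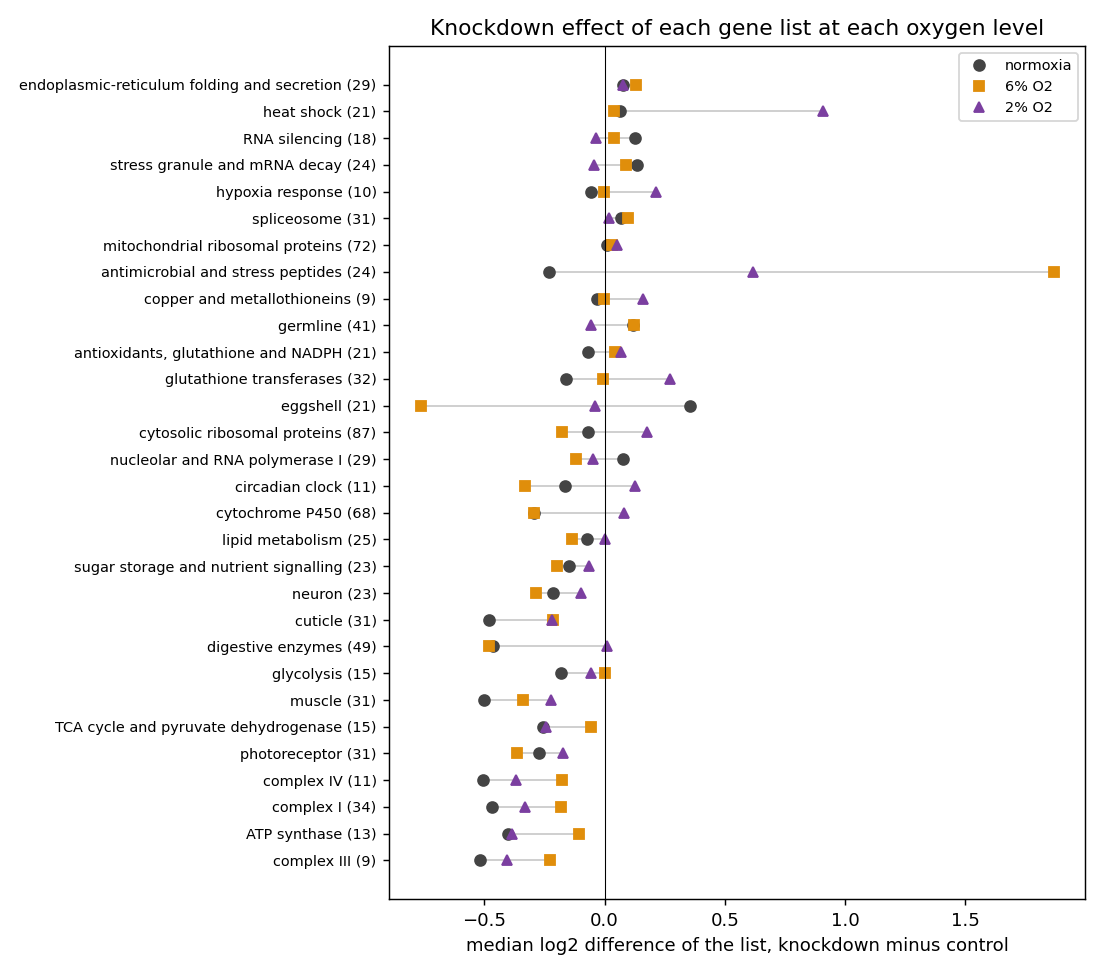
Median log2 difference between knockdown and control flies over the tested members of each list (number in brackets) in normoxia (circles), 6% O2 (squares) and 2% O2 (triangles), each level with its own 6 libraries. The respiratory complexes lie left of 0 at all levels, and heat shock genes stand apart at 2% O2 (0.91).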

How the data were processed

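Messenger RNA captured on poly-dT beads from whole female flies was sequenced on a BGISEQ-500. Per the submitters' processing notes, TopHat2, HTSeq and Cufflinks were used with build BDGP6 (versions not given in the sources used here). The authors deposited 1 FPKM table per library for 17658 genes. FPKM are not counts, so exact read depth is unknown. Whether counting used strand is not stated, so overlapping genes are uncertain. Deposited starts count from 0 and are given here from 1.

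FPKM were scaled by median of ratios over 9068 genes (factors 0.947 to 1.036). The 9921 genes whose mean reached 1 FPKM entered a limma model (version 3.58.1, R 4.3.3) of log2(scaled FPKM + 1), with oxygen level as a block and genotype as the effect. It used trended, robust empirical Bayes and Benjamini-Hochberg adjustment, with calls under 0.05. Adjusted p of averaged differences are from it, or from its refit where another setting is named. Dependence on oxygen was tested with an F test of the interaction in a limma fit of 6 group means. That fit also gave the differences and calls at single oxygen levels. Code was tested on simulated data. Labels number the replicates without saying that they were separate cultures, so p-values measure the spread between these libraries. In the averaged fit this spread also holds any unevenness of the genotype difference between oxygen levels. A fit of 6 group means leaves that unevenness out of the spread, and it called 4138 genes in the average.

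The comparison, members and gene lists were chosen with earlier results of these data known. Named were Tudor-SN, its 2 tested neighbours on each side, da, w and up to 3 list members with the smallest adjusted p. Also named were the 12 largest changes each way among called genes that did not overlap at any oxygen level and reached a genotype mean of 2, and the 6 most uneven genes over oxygen levels. Other genes, including the members of small counts, were named after their values were seen. Cyp1, a cyclophilin gene, and Cp190, a centrosomal and insulator protein gene, had matched the P450 and eggshell lists by symbol alone and were taken out after their values were seen. Pseudocount, filter, scaling, weighting, block and left-out libraries were varied.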

Additional observations from a re-analysis of the deposited data

Results flagged for a closer look

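In 16 named genes limma's interaction test found that the difference between knockdown and control flies was not the same at the 3 oxygen levels. For each, the range of the 3 log2 differences is given with its adjusted p and the differences in the order normoxia, 6% O2 and 2% O2.

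Tudor-SN itself had a range of 1.32 (adjusted p = 3.95e-05), with -3.37, -3.70 and -4.68. Among the genes that rose most, otk2 had a range of 0.803 (adjusted p = 0.0371) with 1.93, 1.53 and 2.33, and CG11619 one of 2.76 (adjusted p = 0.000184) with 0.71, 0.87 and 3.48. CG11619 had 22.6, 15.1 and 35.9 scaled FPKM in knockdown and 0.877, 1.53 and 1.14 in control libraries at 2% O2.

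The next 3 genes had their largest difference at 6% O2. The Bomanin peptide genes CG43202 and IM23 had ranges of 4.35 (adjusted p = 0.0278; -1.05, 3.30 and 0.12) and 4.32 (adjusted p = 0.0121; -0.21, 4.11 and 0.27). CG16772 had a range of 3.62 (adjusted p = 0.0187; 0.09, 3.71 and 0.58). At 6% O2 IM23 had 482, 198 and 385 scaled FPKM in knockdown and 44.3, 11.9 and 11.4 in control libraries. The interaction call of CG43202 was lost in 5 of the fits that leave out 1 library.

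CG3819 and CG6839 were lower in knockdown flies in normoxia and higher at 2% O2, with ranges of 3.39 (adjusted p = 0.000974; -2.18, -0.53 and 1.21) and 3.29 (adjusted p = 0.00147; -2.21, -0.59 and 1.08). CG32302 had a range of 3.04 (adjusted p = 0.043; -0.44, 0.335 and 2.60), with 50.1, 45.2 and 43.1 scaled FPKM in knockdown and 5.03, 7.19 and 8.51 in control libraries at 2% O2.

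Among list members, Hsp70Bb had a range of 1.11 (adjusted p = 0.000932; 0.54, 0.54 and 1.65), the copper importer Ctr1B 1.76 (adjusted p = 0.0064; 1.92, 1.48 and 0.16) and FASN3 1.56 (adjusted p = 0.0118; -0.45, -0.91 and -2.01). Smaller ranges were those of Hph at 0.401 (adjusted p = 0.0126; 0.10, 0.03 and 0.43), RpI135 at 0.327 (adjusted p = 0.019; -0.01, -0.34 and -0.29), RpL37A at 0.315 (adjusted p = 0.0435; 0.14, 0.14 and 0.45) and GstD3 at 0.313 (adjusted p = 0.043; 0.29, 0.39 and 0.60). The interaction calls of CG32302, GstD3, RpL37A and otk2 were lost in 14, 13, 12 and 13 of the 18 fits that leave out 1 library.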

How the results depend on the processing

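Direction was checked for the averaged differences of Tudor-SN and 124 other named genes. In these genes, no difference called in the main fit or in the refit changed direction under the settings tried. Differences called in neither changed sign under some settings in w, mRpL17, snoRNA:Tudor-SN-a, CG43202, CG3819, CG6839 and CG32302, as did the list medians near 0 of mitochondrial ribosomal, cytosolic ribosomal and antioxidant genes with quantile normalisation. The main counts were 3658 called genes, 840 called for unevenness over oxygen levels, 1587 called on the third chromosome and 364 called list members. The number called stayed between 2988 and 4433 under the other pseudocounts, filters, scalings, weights and block, and the share of calls that were higher, 47.2%, was 42.3% with FPKM as deposited and 54.7% when only genes averaging 5 FPKM or more were tested. The cause of the changes below was not tested, except that leaving out a level or library also leaves fewer samples.

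Without the normoxia libraries there were 2164 calls (957 higher, 1207 lower), 905 on the third chromosome and 215 list members. Lower counts were then 34 for the respiratory chain, 3 for the TCA cycle, 2 for glycolysis, 14 for P450 and 11 for digestive enzymes. Higher counts were 9 for mitochondrial ribosomal proteins, 1 for RNA silencing, 1 for mRNA decay, 3 for spliceosome and 4 for germline. Without the 6% O2 libraries there were 1972 calls (941 higher, 1031 lower) and 844 on the third chromosome. Lower counts were 10 for muscle and 3 for neurons, and higher counts 8 for mitochondrial ribosomal proteins, 1 for RNA silencing, 0 for mRNA decay, 4 for spliceosome, 10 for the endoplasmic reticulum and 4 for germline. Without the 2% O2 libraries the interaction gave 0 calls, and the counts were 14 higher for mRNA decay, 5 higher for heat shock, 37 lower for P450 and 17 higher for germline.

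Array weights gave 2618 interaction calls, 12 higher mRNA decay genes and 15 lower neuron genes. Quantile normalisation gave higher counts of 11 for mitochondrial ribosomal proteins, 2 for RNA silencing, 3 for mRNA decay and 11 for the endoplasmic reticulum. FPKM as deposited gave 3 for mRNA decay. With 6 group means, 10 mRNA decay and 16 heat shock genes were higher. A mean of at least 5 FPKM left 14 P450, 5 neuron and 5 cuticle genes lower. Without the 2 libraries of lowest weight, a choice made after seeing the data, 10 mRNA decay genes were higher and 4101 genes were called.

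Leaving out each library in turn gave 3186 to 4565 calls (1472 to 2279 higher, 1690 to 2286 lower), 330 to 1319 for the interaction, 1388 to 1973 on the third chromosome, 326 to 435 list members and a Tudor-SN difference of -3.96 to -3.85. Ranges of lower counts were 66 to 68 for the respiratory chain, 7 to 13 for the TCA cycle, 7 to 17 for neurons and 10 to 15 for cuticle. Ranges of higher counts were 2 to 6 for RNA silencing, 2 to 12 for mRNA decay, 6 to 11 for spliceosome and 7 to 19 for germline.

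Replicate numbers are shared by all groups, but the deviations of same-numbered libraries had a median correlation of -0.014, with 11 of 45 pairs over 0.1, and 3 of 18 libraries correlated best with their own number. With the replicate number as a block 3608 genes were called (1676 higher, 1932 lower) and 749 for the interaction. No call of a named gene's averaged difference changed with the block. Of 124 named differences, quantile normalisation ended 7 calls and added 1, and leaving out the normoxia or the 6% O2 libraries ended 15 and 17.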

Other observations

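The median standard error of a difference was 0.0537 over all levels (9 libraries per genotype) and 0.083 within a single level (3 per genotype). It was not smaller over all levels for every gene, and for Tudor-SN it was 0.148 over all levels and 0.0771 within each level. In all, 836 genes called in the average were called at no single level. Calls at a single level numbered 585 higher and 1004 lower in normoxia, 1194 and 1254 at 6% O2 and 1157 and 843 at 2% O2.

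Small rises outnumbered small falls, while larger changes were mostly falls. Of 1003 called genes that differed by less than 0.15 on the log2 scale, 785 were higher and 218 lower. Of the 812 between 0.3 and 0.5, 170 were higher and 642 lower, and of the 337 between 0.5 and 1, 61 were higher and 276 lower. At 1 and above there were 34 higher and 42 lower.

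Beside Ir76a on chromosome 3L, the overlapping gene CG14102 on the other strand differed by -0.55 (limma adjusted p = 4.66e-07) and the P450 gene Cyp305a1 by -0.515 (adjusted p = 7.18e-05), while CG15881, between them, rose by 0.245 (adjusted p = 0.000142). Around otk2, the 3 tested genes within 10 kb, Mppe, pds5 and CG8321, differed by 0.01, 0.12 and 0.03, and limma called 0 of the 3, with pds5 nearest to the threshold (adjusted p = 0.0603). These genes were chosen by their position.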
